A study of Mus musculus with 12 samples.

Results

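The 12 libraries of this RNA-seq series of mouse blood and spleen divide into 6 that are rich in globin messenger RNA and 6 that are poor in it, and all other genes are compared here between them. The libraries were grouped by a measured value, the globin share, which is the counts of Hba-a1, Hba-a2, Hbb-bs and Hbb-bt over all counts of the library. A share over 25% made a library globin-rich. Globin took 48.9% to 56.1% of counts in the 6 globin-rich libraries and 0.846% to 5.89% in the 6 globin-poor libraries, so the members nearest to the threshold stood at 48.9% and at 5.89%. The 4 globin genes were then left out of every library.

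Nuclear myosin 1 (NM1), a nuclear form of the class I myosin Myo1c, had been knocked out in the KO mice, and WT mice carried the intact gene. Per the labels, all mice were C57/Bl6 and 8 months old, blood was drawn from the submandibular vein, and the spleen piece came from the tip of the organ. The globin-rich libraries are those labelled blood KO 02, blood KO 03, blood WT 01, spleen KO 03, spleen WT 02 and spleen WT 04. The globin-poor libraries are those labelled blood KO 04, blood WT 03, blood WT 04, spleen KO 01, spleen KO 04 and spleen WT 01. Each kind thus holds 3 KO and 3 WT libraries, and 3 of each tissue label. The labels do not say whether each library came from a separate mouse, so the tests below measure the spread between libraries.

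Globin messenger RNA is made by erythroblasts, the red cell precursors of bone marrow and of the mouse spleen, and much of it persists in reticulocytes, the young red cells that have shed their nucleus and circulate in blood. Platelets are cell fragments that carry RNA inherited from megakaryocytes. The spleen filters blood through the red pulp, where macrophages take up worn red cells and recycle their iron, and it houses lymphocytes in the white pulp, on a scaffold of stromal cells that secrete chemokines.

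Library kind and depth went together, and the tissue markers followed the kind rather than the tissue label. Total counts were 9.32 to 12.1 M in globin-rich and 23.1 to 28.2 M in globin-poor libraries, and 4.09 to 5.83 M against 21.8 to 27.4 M once globin was left out. A gene with 0 counts could therefore stand at up to 0.515 to 0.733 CPM, counts per M counts (M, 10 to the power of 6), in the globin-rich kind and up to 0.109 to 0.138 CPM in the globin-poor kind, taking 3 counts as the limit, which covers counting error only. Levels below are CPM of the non-globin counts after scaling by the trimmed mean of M-values (TMM), called scaled CPM. The limits just given are before this scaling. The TMM factors were 0.498 to 0.835 in globin-rich and 1.32 to 1.66 in globin-poor libraries. In scaled CPM the limits are therefore higher in the globin-rich kind and lower in the globin-poor kind. Markers that define spleen tissue were present in all 3 globin-poor libraries labelled blood. There Cxcl13, the chemokine of B cell follicles, stood at 33.1, 44.6 and 65.5 scaled CPM, and the stromal transcription factor Nkx2-5 at 9.02, 10.1 and 5.73 scaled CPM. In the 3 globin-rich libraries labelled spleen, both genes had 0 counts.

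Of the 4 marker genes that the grouping did not use, 3 separated the kinds and 1 did not. Hbb-bs, an adult beta globin that the grouping itself used, took 26.9% to 31.3% of counts in globin-rich against 0.308% to 2.42% in globin-poor libraries. Ppbp (ENSMUSG00000029372, chr5:90768518-90770063, plus strand), a chemokine precursor of platelet granules, had a lowest, median and highest level of 1086, 1862 and 4652 scaled CPM in globin-rich libraries, against 36.1, 63.6 and 71.4 scaled CPM in globin-poor libraries. Vcam1 (ENSMUSG00000027962, chr3:116109949-116129688, minus strand), an adhesion molecule carried by red pulp macrophages and stroma, stood at 0, 1.53 and 2.28 scaled CPM against 147, 211 and 274 scaled CPM. Neither gene had overlapping levels. Spic (ENSMUSG00000004359, chr10:88674772-88685015, minus strand), a transcription factor of red pulp macrophages, lay at 0.438, 1.72 and 2.78 scaled CPM against 31.6, 35.2 and 39.6 scaled CPM, also without overlap. Cd79a (ENSMUSG00000003379, chr7:24897381-24902197, plus strand), a chain of the B cell receptor, overlapped, with 588, 740 and 946 scaled CPM against 531, 658 and 946 scaled CPM. Its log2 fold change was 0.15 ± 0.19 (SE), and -0.98 when libraries were scaled by their size alone.

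**Figure D1:**
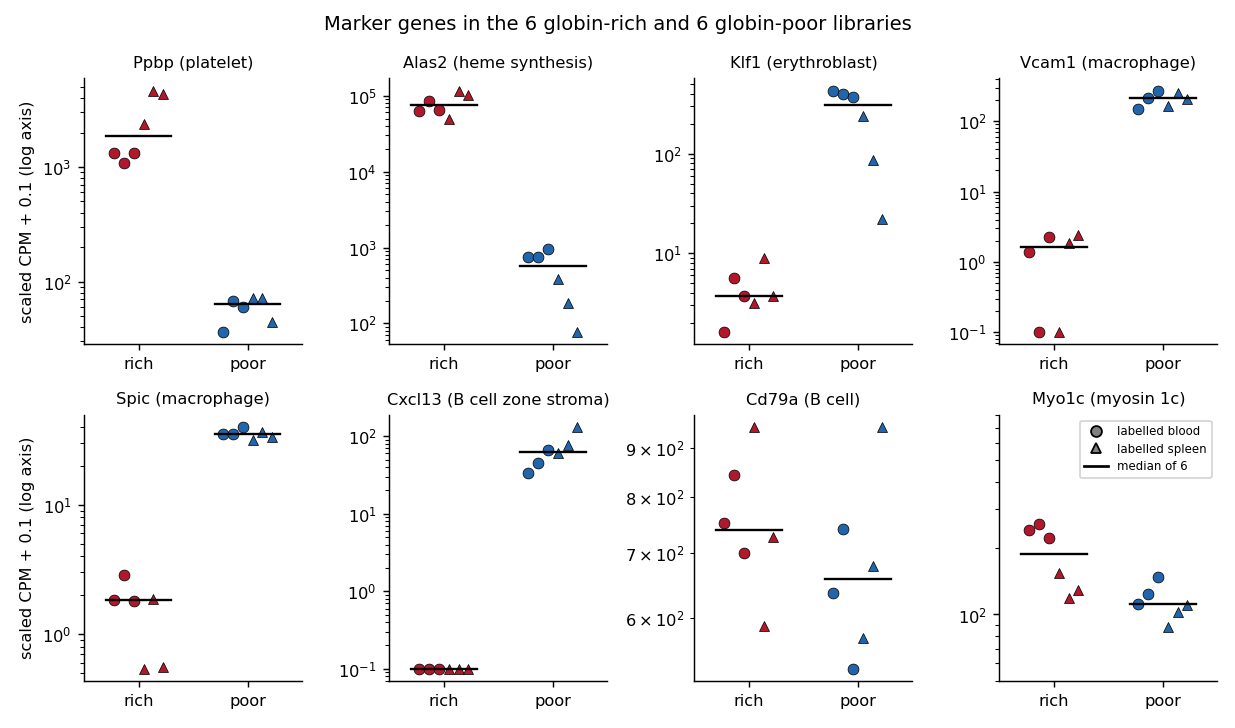
Scaled CPM of 8 genes in each library on log axes, globin-rich libraries left and globin-poor libraries right, with circles for libraries labelled blood, triangles for libraries labelled spleen and a bar at the median of 6. Ppbp, Vcam1 and Spic separate the kinds under both labels, and Cd79a does not.

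The composition of the non-globin counts also differed between the kinds. The 100 genes with most counts took 42.1% to 58.4% of them in globin-rich against 17.6% to 20.4% in globin-poor libraries. Red cell genes led the globin-rich libraries, where Alas2 took 4.05% to 5.77% of non-globin counts, Bpgm 2.29% to 3.28% and Epb41 1.18% to 2.34%. In globin-poor libraries these genes took 0.0125% to 0.140%, 0.00915% to 0.0749% and 0.0163% to 0.0887%. The globin-poor libraries were led by Eef1a1, a translation factor, mt-Co1, Actb, Cd74 and Igkc, and the first of these held 0.250% to 0.383% of counts in globin-rich and 0.495% to 0.644% in globin-poor libraries. Segments of immunoglobulin and T cell receptor genes together held 0.156% to 0.361% against 0.833% to 3.32%. Mitochondrial transcripts held 2.69% to 3.51% against 1.18% to 1.57%, with means of 3.06% and 1.42%. The mitochondrial ribosomal RNAs among them held 1.53% to 2.34% against 0.129% to 0.250%, with means of 1.94% and 0.170%. By these means the ribosomal RNAs differed by more than the whole. The remaining mitochondrial transcripts held a slightly smaller mean share in globin-rich libraries.

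The 6 globin-rich libraries were not alike in how many genes they touched. At an equal depth of 4.09 M non-globin counts, 4 of them (blood KO 02, blood WT 01, spleen WT 02 and spleen WT 04) had counts in 21982 to 25053 genes, whereas blood KO 03 had 15144 and spleen KO 03 had 15940. The globin-poor libraries lay between, at 18270 to 19055 genes. The same 4 libraries held olfactory receptor genes, which blood cells and spleen hardly use, at a summed 156 to 227 scaled CPM, beside 13 in blood KO 03 and 9.64 in spleen KO 03 and 4.94 to 7.74 in globin-poor libraries. What adds these counts was not tested, and counts without the 4 libraries are given below.

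**Figure D2:**
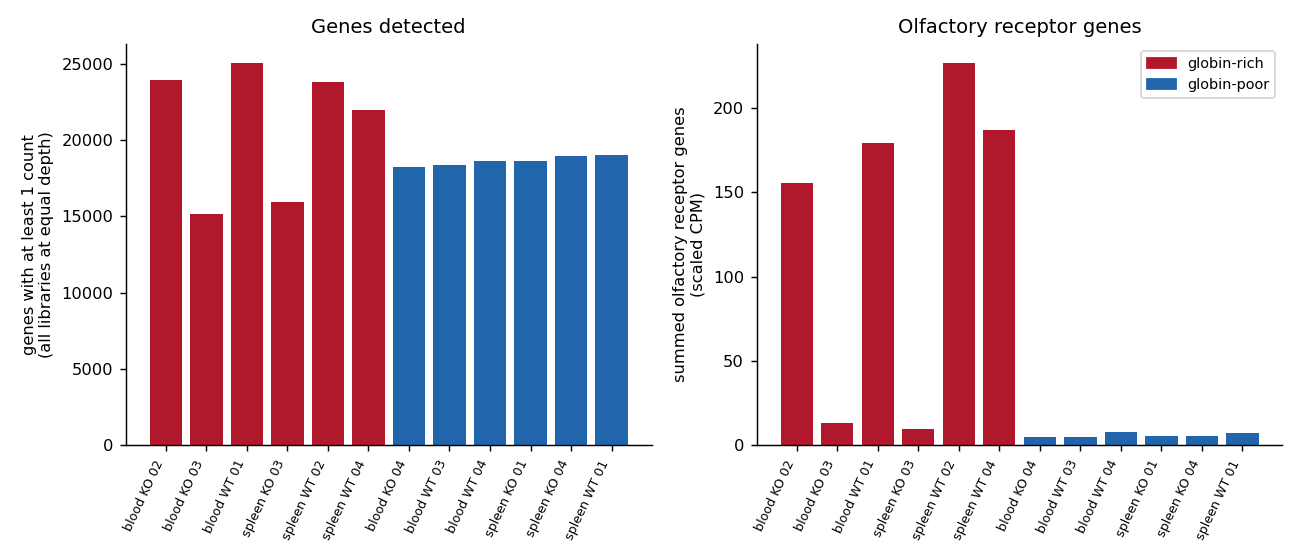
Bars show, per library, the number of genes with counts after thinning to 4.09 M non-globin counts (left panel) and the summed scaled CPM of olfactory receptor genes (right panel), globin-rich libraries first. The 4 libraries at 156 to 227 scaled CPM are also those with 21982 genes or more.

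Across all genes, 14840 passed the filter on low counts. A gene is called separated here when the lowest library of one kind lay above the highest of the other and the fitted difference, with genotype as a term, was at least 2-fold. By this rule 1486 genes (10%) stood higher in globin-rich libraries and 1960 (13.2%) stood lower. These shares are the background for the counts of gene lists below. Differences of 16-fold or more were reached by 191 separated genes that stood higher and 398 that stood lower, and differences of 64-fold or more by 39 and 133. With edgeR's quasi-likelihood test at an adjusted threshold of 0.05, 3643 genes (24.5%) were called higher and 4231 (28.5%) lower. Because the kinds were defined by a measured value, these calls describe the contrast and no p-value is given for it. The filter matters for these counts, since a gene can enter through the kind where it is high. As a guide that is not the filter's own threshold, a level of 1 scaled CPM was used. Of the 1960 lower genes, 874 reached it in every globin-poor library but not in every globin-rich one. Of the 1486 higher genes, 225 reached it in every globin-rich library but not in every globin-poor one.

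The scaling sets where 0 lies. With TMM the median log2 fold change of all genes was -0.07, and with library size alone it was -1.19, a shift of -1.12. Under library size alone, 467 genes were separated upward, each among the 1486, and 6803 downward, among them all 1960, while 164 of the 1486 turned to the other sign. Every log2 value below is relative to the TMM scale and is read against the median of -0.07. With all libraries thinned to equal depth, edgeR called 3236 genes higher and 3678 lower.

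**Figure D3:**
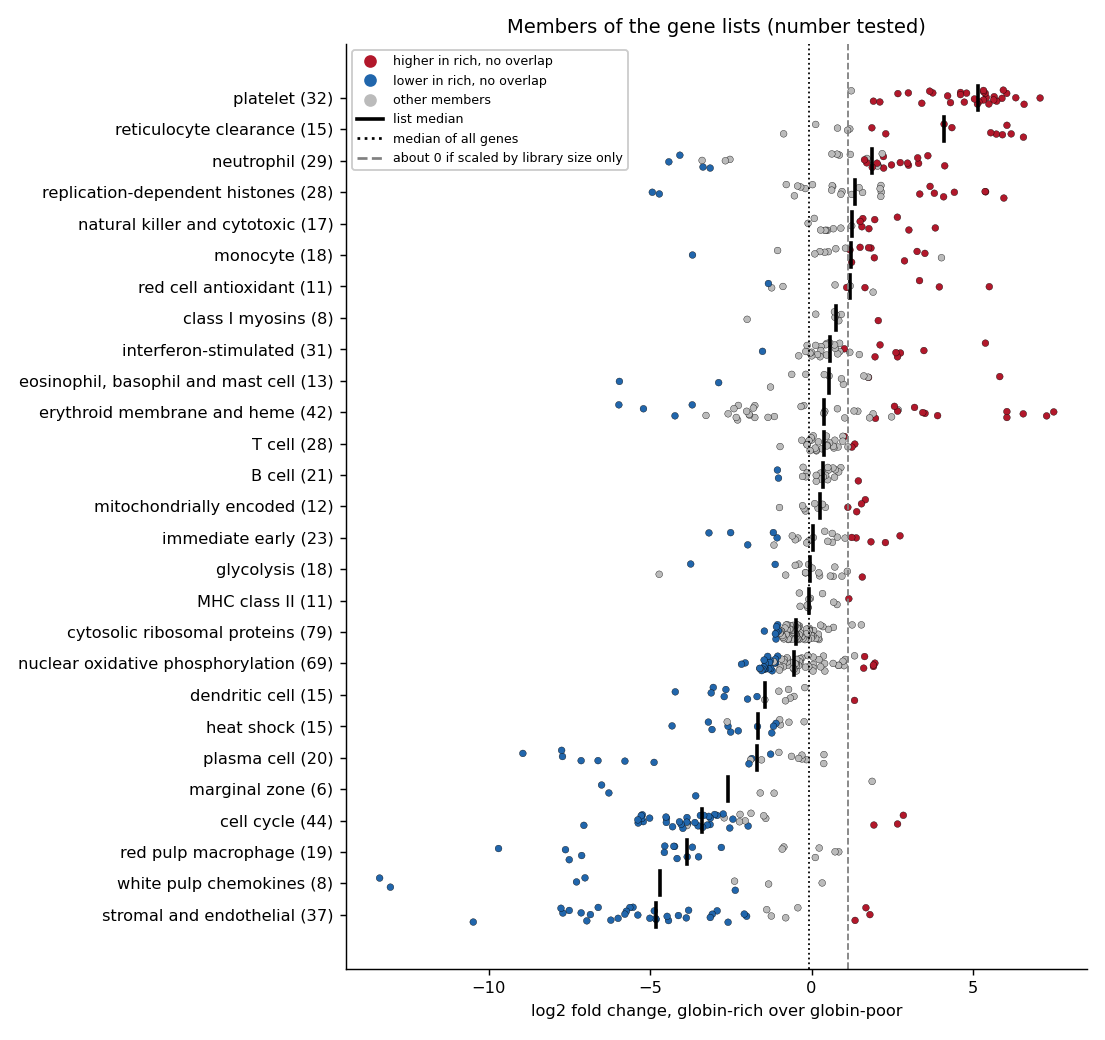
Each point is the log2 fold change, globin-rich over globin-poor, of 1 gene of the list named on the left, with the number tested in brackets and a thick bar at the list's median. Platelet genes lie to the right of 0 almost throughout and stromal genes to the left, whereas the erythroid list spans -5.97 to 7.50.

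Erythroid genes, which build the red cell's membrane and its heme, did not move together. Of the 43 listed genes 42 were tested, 12 stood higher in globin-rich libraries without overlap, 4 stood lower, and 26 were not separated. By edgeR 16 were called higher and 17 lower. The list's median was 0.39, and -0.72 under library size alone. The summed list stood at 132270 to 350100 scaled CPM in globin-rich libraries against 1892 to 24454 in globin-poor ones. Since these are bulk samples, fewer cells of a type and less RNA per cell cannot be told apart, here and in every list below.

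The members that stood higher included enzymes of heme synthesis and a gene of the membrane skeleton. Alas2 (ENSMUSG00000025270, chrX:150547375-150570638, plus strand), the first enzyme of heme synthesis in red cells, had a lowest, median and highest level of 48622, 75510 and 116870 scaled CPM in globin-rich libraries against 76.7, 563 and 946 in globin-poor libraries. This is a log2 fold change of 7.28 ± 0.67 (SE). Bpgm (ENSMUSG00000038871, chr6:34476207-34505613, plus strand), whose product lowers the oxygen affinity of hemoglobin, stood at 27435, 42302 and 66363 against 56.1, 248 and 506 scaled CPM, with a log2 fold change of 7.50 ± 0.58. The membrane skeleton gene Epb41 followed with 6.55 ± 0.52, and ferrochelatase (Fech), the last enzyme of heme synthesis, with 6.05 ± 0.63. The anion exchanger Slc4a1 overlapped, with 2668, 8957 and 13803 against 160, 1802 and 2708 scaled CPM.

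Other erythroid genes stood on the other side. Klf1 (ENSMUSG00000054191, chr8:84901928-84905291, plus strand), the erythroid Krüppel-like transcription factor, was at 1.51, 3.64 and 8.82 scaled CPM in globin-rich against 22.2, 305 and 430 in globin-poor libraries, a log2 fold change of -5.97 ± 0.73. Carbonic anhydrase 1 (Car1) differed by -5.20, the Scianna blood group gene Ermap by -4.23 and Alad, the second enzyme of heme synthesis, by -3.69, each without overlap. Transferrin receptor (Tfrc), which imports iron, stood at 46.9, 110 and 201 against 77.4, 667 and 1005 scaled CPM and overlapped. So did the transcription factors Gata1 and Tal1, with a log2 fold change of -1.76 each. In the libraries labelled spleen alone, the difference was 0.49 for Gata1 and 0.20 for Tal1. The difference between the labels did not pass edgeR's interaction test (adjusted p = 0.141 and 0.213).

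The globin-poor libraries also differed among themselves. Klf1 stood at 430, 396 and 372 scaled CPM in those labelled blood KO 04, blood WT 03 and blood WT 04, and at 239, 85.3 and 22.2 in those labelled spleen KO 01, spleen KO 04 and spleen WT 01. Alas2 followed the same division, at 746, 745 and 946 against 380, 186 and 76.7 scaled CPM. Both genes were therefore lower in all 3 globin-poor libraries labelled spleen than in all 3 labelled blood, although they moved in opposite directions between the kinds.

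Both sides carry the same short sequence upstream of their starts in some members. The letters GATA with A or T before them and A or G after them, the core to which GATA factors bind, were searched on both strands in the 250 bases before the RefSeq start. Overlapping matches were counted. A match was present in 4 of the 7 separated higher erythroid genes with a promoter in the table, and in 2 of the 3 lower ones. Of all 27025 promoters 27.1% hold a match, and of those of tested genes 17.2% (1844 of 10701). The 6 erythroid promoters with a match are shown because the genes that stood higher (the first 4) and lower (the last 2) can be compared letter by letter. They are RefSeq sequences of build GRCm38.p6, printed 5′ to 3′ on the gene's strand up to the base before the annotated start. Capitals mark GATA matches or matches to CCNCNCCC, the core of Krüppel-like factor sites, on either strand.
Alas2, chrX:150547167-150547374, plus strand: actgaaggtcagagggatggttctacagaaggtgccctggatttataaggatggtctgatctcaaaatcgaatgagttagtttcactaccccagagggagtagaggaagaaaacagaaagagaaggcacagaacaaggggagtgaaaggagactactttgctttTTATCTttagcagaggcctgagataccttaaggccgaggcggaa
Epb41, chr4:132075322-132075563, minus strand: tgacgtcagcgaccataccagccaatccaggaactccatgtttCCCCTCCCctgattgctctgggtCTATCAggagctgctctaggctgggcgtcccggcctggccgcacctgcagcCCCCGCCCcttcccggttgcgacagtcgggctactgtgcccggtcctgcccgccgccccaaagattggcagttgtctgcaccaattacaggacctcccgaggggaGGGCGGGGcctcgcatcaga
Trim10, chr17:36869324-36869573, plus strand: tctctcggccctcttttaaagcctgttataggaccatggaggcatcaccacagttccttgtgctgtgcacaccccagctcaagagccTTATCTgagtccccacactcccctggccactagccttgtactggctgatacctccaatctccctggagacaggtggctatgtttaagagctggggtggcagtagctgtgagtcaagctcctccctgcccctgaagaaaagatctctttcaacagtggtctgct
Trim58, chr11:58640215-58640464, plus strand: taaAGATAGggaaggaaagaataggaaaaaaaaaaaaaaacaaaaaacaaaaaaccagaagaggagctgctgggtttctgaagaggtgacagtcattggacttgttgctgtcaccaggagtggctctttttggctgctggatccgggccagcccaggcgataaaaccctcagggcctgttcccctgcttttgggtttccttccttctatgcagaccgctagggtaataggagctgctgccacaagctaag
Ermap, chr4:119190012-119190245, minus strand: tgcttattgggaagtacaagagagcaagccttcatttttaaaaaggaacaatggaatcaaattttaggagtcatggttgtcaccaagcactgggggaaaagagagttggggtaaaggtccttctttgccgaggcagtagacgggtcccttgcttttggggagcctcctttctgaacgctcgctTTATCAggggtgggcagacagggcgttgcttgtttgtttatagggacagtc
Klf1, chr8:84901732-84901927, plus strand: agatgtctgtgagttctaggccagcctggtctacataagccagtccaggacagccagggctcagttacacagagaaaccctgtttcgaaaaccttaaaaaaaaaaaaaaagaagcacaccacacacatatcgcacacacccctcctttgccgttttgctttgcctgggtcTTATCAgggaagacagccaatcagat
Trim58 holds its GATA match on the strand shown and the other promoters hold theirs on the opposite strand, and Epb41 also holds 3 CCNCNCCC matches. In the 250-base windows CCNCNCCC was found in 5 of the 7 higher and 1 of the 3 lower erythroid promoters, against 63.8% of the promoters of tested genes. Among separated genes of 16-fold or more, 27.7% of the higher promoters (33 of 119) and 17.6% of the lower (49 of 279) held a GATA match. A match is a description of the sequence only.

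**Figure D4:**
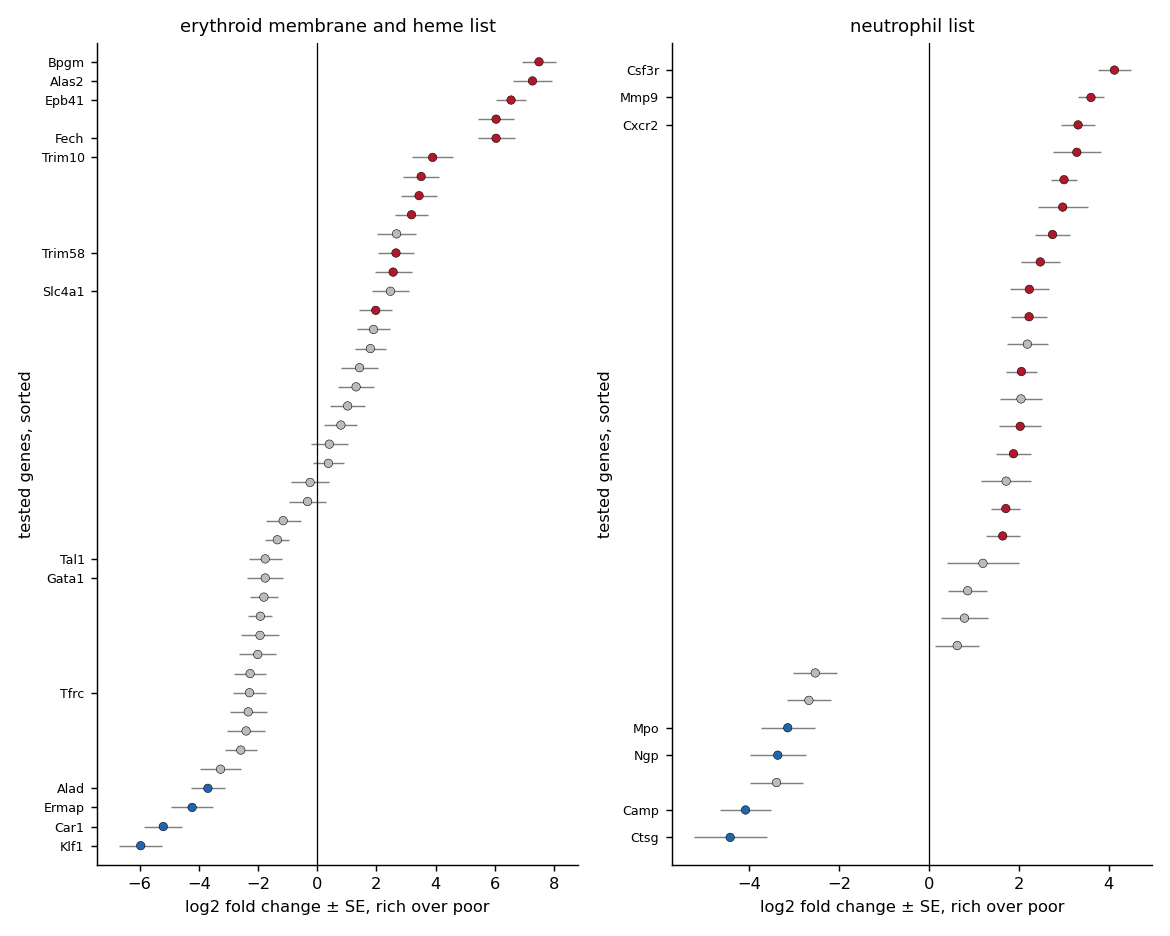
Log2 fold change ± SE, globin-rich over globin-poor, of each tested member of the erythroid list and of the neutrophil list, sorted by size, with genes named in the text labelled and separated genes in red (higher) or blue (lower). Both lists run from strongly negative to strongly positive values, Klf1 and Ctsg at the lower end and Bpgm and Csf3r at the upper.

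Genes that strip a reticulocyte of its organelles and proteins stood higher in globin-rich libraries. Of 15 listed, 10 were separated and higher, 0 were lower, and the median log2 fold change was 4.10. Ube2o, a ubiquitin ligase that tags surplus proteins for removal in reticulocytes, stood at 8563, 16717 and 24206 scaled CPM in globin-rich against 50.4, 180 and 331 in globin-poor libraries. Bnip3l, also called Nix, which marks mitochondria for removal, stood at 7326, 10820 and 16012 against 77.8, 166 and 229 scaled CPM. Mkrn1, a ubiquitin ligase, and Ube2l6, a conjugating enzyme, had log2 fold changes of 5.72 and 5.91. The polyubiquitin gene Ubb differed by 4.35 without overlap. In the promoter table, 0 of 11 members had a GATA match and 9 of 11 held CCNCNCCC.

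The antioxidant genes of red cells were mixed, with 5 of 11 separated and higher and 1 lower. Catalase (Cat) stood at 1558, 3407 and 4889 scaled CPM against 47.8, 66.2 and 117, and glutathione peroxidase 1 (Gpx1) at 8863, 17618 and 23214 against 447, 1604 and 3002. Thioredoxin (Txn1) differed by -1.34 without overlap, and superoxide dismutase 1 (Sod1) by -0.89 with overlap. Interferon-stimulated genes had 8 of 31 members separated and higher and 1 lower, with a median of 0.56 that became -0.67 under library size alone. Rsad2, an antiviral enzyme, was the most abundant of them and stood at 4511, 11178 and 16713 against 38.8, 266 and 496 scaled CPM. Isg15, a ubiquitin-like protein, followed with a log2 fold change of 3.48 ± 0.59, and Bst2, a tether of virus particles, differed by -1.52. The levels of Rsad2 in globin-poor libraries ran as those of Alas2 did, at 362 to 496 scaled CPM under the label blood and 38.8 to 170 under the label spleen. The GTP cyclohydrolase regulator Gchfr, the phosphatase Phospho1, the cathepsin inhibitor Ctla2a, Fam220a and Ly6g6c also ranked among the 12 largest differences upward, at 6.87 to 7.69 on the log2 scale.

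Platelet genes had the largest share of separated members among the gene lists. All 32 were tested, 31 were separated and higher, 0 were lower, and the median log2 fold change was 5.16. Tubb1 (chr2:174450695-174457882, plus strand), the beta-tubulin of the platelet's marginal band, stood at 303, 466 and 1132 scaled CPM in globin-rich libraries against 1.84, 4.64 and 6.27 in globin-poor libraries, a log2 fold change of 7.08 ± 0.48. Of the surface receptors, the integrin chain Itga2b stood at 1230, 1911 and 4091 against 43.9, 51.8 and 78.0 scaled CPM. The collagen receptor Gp6 and the ADP receptor P2ry12 differed by 5.90 and 5.65 on the log2 scale. Of the granule cargo, platelet factor 4 (Pf4) stood at 460, 781 and 1387 against 24.7, 32.7 and 53.5 scaled CPM, and von Willebrand factor (Vwf), which binds platelets to injured vessels, at 480, 752 and 1964 against 22.1, 29.3 and 38.4. Coagulation factor 5 (F5) differed by 6.58. Clu, the chaperone clusterin, was the member that overlapped, with a log2 fold change of 1.23, or 0.04 under library size alone.

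Within the globin-rich libraries the platelet sums depended on the tissue label. They were 39957, 38837 and 23392 scaled CPM in spleen WT 02, spleen WT 04 and spleen KO 03, and 11613 to 14580 scaled CPM in the 3 libraries labelled blood. The globin-poor libraries lay at 984 to 1557 scaled CPM under either label, so the kinds did not overlap. The 2 highest sums belong to the libraries with the smallest TMM factors. Without TMM scaling, spleen WT 02 and spleen WT 04 stood at 19721 and 20786 CPM, beside 19506 in spleen KO 03 and 7054 to 11732 in the libraries labelled blood.

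Macrophage genes of the spleen stood lower in globin-rich libraries. In the red pulp list 13 of 19 genes were separated and lower, 0 were higher, and the median was -3.85. By edgeR 15 were called lower and 2 higher. Slc11a1 and Treml4 stood higher in globin-rich libraries without overlap, but by less than 2-fold. Slc11a1 lay at 34.0, 41.7 and 75.6 scaled CPM against 18.6, 27.3 and 30.6. C1qa, a chain of the complement starter C1q, had 0 counts in most globin-rich libraries and at most 0.853 scaled CPM, against 143, 189 and 273 scaled CPM in globin-poor libraries. C1qb and C1qc differed by -7.62 and -7.12. Cd5l, which macrophages secrete, stood at 0.438, 1.18 and 7.30 against 29.7, 37.7 and 53.9 scaled CPM, and Hmox1, which opens the heme ring, at 3.03, 13.1 and 30.0 against 130, 167 and 202. The iron exporter Slc40a1 overlapped at 27.0, 57.8 and 135 against 93.4, 119 and 139, and so did Sirpa, the receptor of the red cell's CD47, with 0.12 on the log2 scale. Marginal zone genes had 3 of 6 members separated and lower, the scavenger receptor Marco with -6.50, Timd4 with -6.28 and the addressin Madcam1 with -3.59. By edgeR 4 members were called lower and 1 higher. Msr1, another scavenger receptor, ran the other way at 1.51, 7.55 and 13.4 against 0.592, 1.95 and 3.12 scaled CPM, with overlap.

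The white pulp chemokine genes Cxcl13 and Ccl19 had 0 counts in globin-rich libraries. Cxcl13 (ENSMUSG00000023078, chr5:95956951-95961068, plus strand) had 0 counts in all 6 globin-rich libraries against 33.1, 63.0 and 131 scaled CPM in globin-poor libraries. Against 3 counts over the group it was at least 514-fold lower. Ccl19, which draws T cells and dendritic cells, was likewise at 0 and at least 393-fold lower. Other genes at 0 counts were the metallothionein Mt2, at least 431-fold lower, and Apol7c, Rarres2 and Prss23, at least 274-fold, 108-fold and 77.7-fold lower. Of the 8 white pulp chemokine and cytokine genes 5 were separated and lower, and the list summed to 6.80 to 33.1 against 376 to 744 scaled CPM. Cxcl12 and Ccl21a differed by -7.01 and -7.28, whereas the lymphotoxin beta receptor Ltbr overlapped. Reads of Ccl21a and Ccl19 may be shared with near-identical copies, so their levels are uncertain.

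The stromal and endothelial list had 30 of 37 tested genes separated and lower and 3 higher, with a median of -4.81. The spleen's organ-forming transcription factors were low in globin-rich libraries: Tlx1 stood at 0, 0.433 and 1.49 against 9.96, 12.3 and 15.9 scaled CPM, Tcf21 differed by -5.99, and Nkx2-5 was at 0 counts and at least 65.3-fold lower. Collagen I (Col1a1) stood at 0, 0.522 and 1.32 against 47.7, 60.0 and 97.3 scaled CPM, and decorin (Dcn) differed by -7.70. Outside this list, some of the 12 genes with the largest change downward among all genes have few counts in globin-rich libraries. For these a counting interval is given where shown. Ccn2, a matricellular growth factor, had 1 count over all globin-rich libraries and was 1237-fold higher in globin-poor libraries (95% interval 222 to 48843), and Igfbp3 had 3 counts and was 752-fold higher there (257 to 3647). C1s1, a complement protease, and Serpina3n had 1 count each. Coch, a matrix protein, had 7 counts over the globin-rich libraries, all of them in blood KO 02. The 3 members of the stromal and endothelial list that stood higher in globin-rich libraries were Pecam1, Fn1 and Esam. Pecam1, an adhesion molecule of endothelium, platelets and leukocytes, stood at 197, 246 and 344 against 81.9, 97.2 and 123 scaled CPM, and Esam and fibronectin (Fn1) differed by 1.81 and 1.68.

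B and T cell genes had few separated members. In the B cell list 1 of 21 genes was separated and higher and 2 lower, and in the T cell list 3 of 28 were higher and 0 lower. By edgeR 8 B cell genes were called higher and 2 lower, and 12 T cell genes higher and 0 lower. The medians of 0.36 and 0.39 became -0.77 and -0.78 under library size alone. Fcer2a, the low-affinity IgE receptor of follicular B cells, stood at 260, 345 and 419 scaled CPM in globin-rich against 91.1, 127 and 157 in globin-poor libraries. Complement receptor 2 (Cr2) differed by -1.02 and the IgM heavy chain Ighm by -1.06. Among the separated T cell genes were Ccr7, the homing receptor for lymphoid organs, at 180, 214 and 250 against 55.0, 85.5 and 115 scaled CPM and the transcription factor Tcf7 with 1.25.

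Killer and antibody-secreting cells diverged from these. Of 17 natural killer and cytotoxic genes 8 were separated and higher and 0 lower, with a median of 1.24, or 0.16 under library size alone. S1pr5, the receptor that lets natural killer cells leave tissue, stood at 16.4, 31.7 and 42.3 against 0.871, 2.13 and 4.00 scaled CPM, and the activating receptor Ncr1 at 14.5, 18.7 and 21.0 against 0.731, 2.26 and 3.40. Granzyme B (Gzmb) differed by 2.66, and Ccl5 by -0.11 with overlap. In the plasma cell list 10 of 20 genes were separated and lower and 0 higher, with sums of 490 to 621 against 1760 to 7607 scaled CPM. Jchain, which joins IgA and IgM units, stood at 2.47, 3.80 and 5.48 against 291, 478 and 911 scaled CPM. Igha, the IgA heavy chain, reached at most 36.1 against 555, 1079 and 1614, and Ighg2b and Ighg2c differed by -7.74 and -8.94. Xbp1 and Irf4, transcription factors that plasma cells share with other cells, overlapped at -0.30 and 0.38.

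Neutrophil genes went both ways. Of 30 listed genes 29 were tested, 15 were separated and higher and 4 lower. Csf3r, the receptor for granulocyte colony-stimulating factor, stood at 276, 509 and 1282 scaled CPM in globin-rich against 20.0, 33.7 and 46.4 in globin-poor libraries. Mmp9, a protease of late granules, stood at 177, 229 and 489 against 17.0, 18.9 and 35.6, and the chemokine receptor Cxcr2 at 66.6, 105 and 318 against 8.13, 14.7 and 18.2. Mmp8 and Chil3 also stood higher without overlap, by 2.23 and 2.97 on the log2 scale. The 4 lower members encode granule proteins. Of these, myeloperoxidase (Mpo) stood at 0, 2.57 and 6.17 against 6.68, 18.0 and 34.6 scaled CPM, Ngp and Camp differed by -3.36 and -4.08, and Ctsg had 3 counts in all globin-rich libraries together and was 21.0-fold higher in globin-poor libraries (95% interval 7.15 to 102). Other granule protein genes overlapped, Elane, Prtn3 and Ltf with -2.53, -2.67 and -3.39 and Lcn2 with 0.63. The library labelled spleen KO 03 held the list at 7277 scaled CPM, against 1289 to 2489 in the other globin-rich libraries and 510 to 985 in globin-poor libraries. Without it the median of the list was 1.18 instead of 1.88.

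Monocyte genes had 9 of 18 members separated and higher and 1 lower, with a median of 1.22, or 0.05 under library size alone. Ccr2, the receptor that lets monocytes leave bone marrow, stood at 75.7, 101 and 158 against 6.44, 8.88 and 12.9 scaled CPM, and the integrin Itgam differed by 3.27. Lysozyme (Lyz2) stood at 994, 1856 and 2751 against 447, 573 and 984. Dendritic cell genes went the other way with 7 of 15 separated and lower and 1 higher, the cross-presenting marker Clec9a with -2.65, the plasmacytoid marker Siglech with -3.04 and Fscn1, an actin bundler of mature dendritic cells, with -4.22. MHC class II genes had 1 of 11 members separated and higher and 0 lower. That gene was Ciita, their master regulator, with 1.15, and -0.01 under library size alone.

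Cell cycle genes stood lower, with 33 of 44 separated and lower, 3 higher, and a median of -3.41. Cdk1, the mitotic kinase, stood at 0, 0.216 and 4.56 scaled CPM in globin-rich against 16.6, 122 and 194 in globin-poor libraries. The replication helicase gene Mcm7 stood at 29.2, 32.4 and 39.3 against 74.1, 309 and 507, and Top2a and Plk1 differed by -3.86 and -5.24. The 3 higher members were Nusap1, E2f2 and Ube2c. E2f2, a transcription factor, stood at 1115, 1918 and 3464 against 59.7, 360 and 542 scaled CPM, and spindle protein Nusap1 at 274, 540 and 772 against 15.8, 83.5 and 127. Because of these 3, the summed list overlapped between the kinds, at 2685 to 6979 against 1605 to 12004 scaled CPM. In the globin-poor libraries the sums ran with Klf1, at 12004, 11080 and 9195 scaled CPM in blood KO 04, blood WT 03 and blood WT 04, and 6928, 3265 and 1605 in spleen KO 01, spleen KO 04 and spleen WT 01.

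Genes of protein synthesis, energy and stress differed from list to list. Of 79 cytosolic ribosomal protein genes 7 were separated and lower and 0 higher, with a median of -0.49, and edgeR called 42 lower and 2 higher. Many have near-identical pseudogenes, so their single values are uncertain. Of 69 nuclear genes of oxidative phosphorylation 20 were lower and 5 higher, with a median of -0.55, and the ATP synthase subunits Atp5g1 and Atp5b marked the ends at -2.17 and 1.96. Mitochondrially encoded genes had 4 of 12 tested members separated and higher, with a median of 0.27 that became -0.89 under library size alone. Heat shock genes had 10 of 15 members separated and lower and 0 higher, and edgeR called 14 lower. Hsp90aa1 stood at 106, 124 and 153 against 423, 680 and 1038 scaled CPM. The immediate-early genes went both ways, 5 of 23 higher and 5 lower: Fos stood at 17.5, 36.1 and 64.2 against 3.62, 4.69 and 9.51 scaled CPM and Jund differed by 2.29, whereas Egr1, Egr2 and Myc differed by -1.98, -3.18 and -1.18. Glycolysis genes had 1 of 18 higher, the pyruvate kinase Pkm with 1.57, and 2 lower.

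Genotype was tested in the same fit, since it comes from the labels. With library kind as a term, 0 of 14840 genes (0%) differed between KO and WT by edgeR's quasi-likelihood test at an adjusted threshold of 0.05, DESeq2 and limma-voom also calling 0. At an unadjusted p under 0.05 there were 368 genes (2.48%) with edgeR, 716 (4.82%) with DESeq2 and 291 (1.96%) with limma-voom. Each share is under the 5% that this threshold passes by chance alone. The smallest edgeR p belonged to Creld2, an endoplasmic reticulum chaperone, with a log2 fold change, KO over WT, of 0.75 ± 0.19 (edgeR adjusted p = 0.998). A p that misses the threshold does not show that KO and WT were alike.

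Whether the rich-poor difference itself depended on genotype was tested as an interaction, in a fit without tissue label. The labels are not balanced over it. In the globin-rich kind, 2 KO and 1 WT library were labelled blood, and 1 KO and 2 WT were labelled spleen. In the globin-poor kind these numbers are reversed. The interaction is therefore mixed in part with the tissue label. By edgeR 0 of 14840 genes (0%) passed, with 915 (6.17%) at an unadjusted p under 0.05 and a smallest adjusted p of 0.485. With tissue label added as a term edgeR also called 0. Limma-voom called 0 genes and DESeq2 called 58. Without the library labelled blood KO 02, edgeR called 118, so that count rests on this library. It is also the only KO library among the 4 globin-rich ones with high olfactory receptor counts, and all 3 globin-rich WT libraries are among them. Without it, genotype within the globin-rich kind and those counts cannot be told apart. Bok, a member of the Bcl-2 family, had one of the smallest p, with an interaction of -8.27 ± 1.53 on the log2 scale (edgeR adjusted p = 0.485). Its levels lay between 0 and 3.41 scaled CPM in the globin-rich kind, against 11.7 to 18.8 in the globin-poor kind. All 3 globin-rich KO libraries had 0 counts of Bok, and blood WT 01, spleen WT 02 and spleen WT 04 had 16, 2 and 4. The fitted interaction therefore rests on few counts, and its size is not a measured fold.

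Myo1c, the gene of which NM1 is an isoform, was counted over all its isoforms, so its level does not check the knockout. It stood at 241, 256 and 154 scaled CPM in the globin-rich libraries blood KO 02, blood KO 03 and spleen KO 03, and at 222, 119 and 130 in blood WT 01, spleen WT 02 and spleen WT 04. In globin-poor libraries it stood at 112, 87.9 and 103 scaled CPM in blood KO 04, spleen KO 01 and spleen KO 04, and at 123, 148 and 110 in blood WT 03, blood WT 04 and spleen WT 01. KO and WT levels overlapped in both kinds. The genotype effect was 0.06 ± 0.21 (edgeR adjusted p = 0.998) and its interaction with kind 0.80 ± 0.38 (edgeR adjusted p = 0.815). That interaction was fitted without tissue label. In the globin-rich kind, Myo1c ran at 222 to 256 scaled CPM under the label blood and 119 to 154 under the label spleen. Between the kinds, Myo1c differed by 0.71 ± 0.21 with overlap, or by -0.38 under library size alone. Of the 8 class I myosins only Myo1f, the myosin of leukocytes, was separated, at 137, 167 and 246 against 31.4, 41.7 and 53.3 scaled CPM, a log2 fold change of 2.07 that was 0.92 under library size alone.

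The contrast was then taken within each tissue label, with 3 globin-rich against 3 globin-poor libraries. Over 14578 genes the log2 fold changes under the label blood and under the label spleen had a Pearson r of 0.788 across genes, which are not independent replicates. Of the 1486 separated higher genes 1475 had a value under both labels, and 0 lay below 0 under either. All 1960 separated lower genes were below 0 under both. The rule of no overlap itself nearly fixes these signs. Platelet medians were 4.32 under blood and 5.56 under spleen, red pulp macrophage medians -3.56 and -4.09, and stromal medians -4.66 and -5.18. The erythroid median differed in sign, -0.62 under blood and 1.94 under spleen. Klf1 differed by -6.94 under blood and -3.71 under spleen, and Alas2 by 6.41 and 8.93, neither passing edgeR's test of the difference between labels (adjusted p = 0.235 and 0.161). The difference between list medians was not tested.

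**Figure D5:**
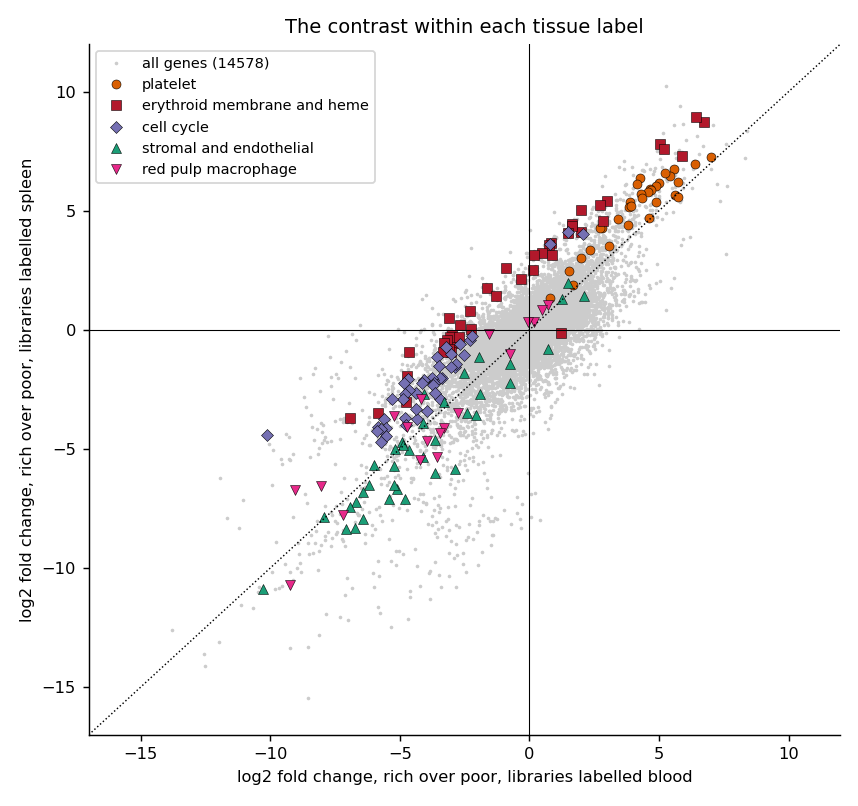
Each grey point is a gene placed by its log2 fold change, globin-rich over globin-poor, in libraries labelled blood (horizontal) and in libraries labelled spleen (vertical), with members of selected lists in colour. Platelet and stromal genes lie at opposite ends near the diagonal, and erythroid genes lie above it.

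The difference between the labels was tested as an interaction of kind with tissue label, given as the contrast under blood minus that under spleen. By edgeR 17 of 14840 genes (0.115%) passed an adjusted threshold of 0.05, of which 3 were above 0 and 14 below. An unadjusted edgeR p under 0.05 was reached by 3149 genes (21.2%). Ache, the acetylcholinesterase of red cell membranes and synapses, had the smallest p, with -4.01 ± 0.54 (edgeR adjusted p = 0.0341). It stood at 16.0, 13.3 and 12.4 scaled CPM in globin-rich libraries labelled blood against 97.3, 95.9 and 96.4 in globin-poor ones. Under the label spleen it stood at 39.7, 63.9 and 56.6 in globin-rich against 42.0, 27.2 and 12.6 in globin-poor libraries. The direction of Ache therefore turned round between the labels, apart from the globin-poor library spleen KO 01, which overlapped. Hbq1a, a theta globin, Cdkn2d, an inhibitor of the cell cycle, Cyb5a and Ubap1 also lay below 0, at -2.68, -2.06, -2.01 and -1.53 (edgeR adjusted p = 0.0341 each). The calcium channel gene Cacna1e, the lymphoid transcription factor Ikzf3 (Aiolos) and the phosphatase Ppm1h lay above 0, at 2.14, 1.92 and 1.47 (edgeR adjusted p = 0.0341, 0.0469 and 0.0469). DESeq2 called 1292 genes and limma-voom 7. With the replicate block edgeR called 0, and under library size alone 1. The count also depended on every library: edgeR called 0 genes without blood KO 02, blood KO 03, blood KO 04, blood WT 01, blood WT 03, spleen KO 04, spleen WT 02 or spleen WT 04, 1 without spleen WT 01, and 634, 865 and 952 without blood WT 04, spleen KO 01 and spleen KO 03.

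The 4 globin-rich libraries with most olfactory receptor counts were last left out, which keeps 2 KO globin-rich libraries (blood KO 03 and spleen KO 03) against 6. Separated genes then numbered 1705 higher and 3611 lower, of which 1341 and 1844 were among those of the full comparison. Absence of overlap is easier to reach with 2 libraries against 6, so these counts cannot be set against those of the full comparison. In this setting edgeR called 1797 genes higher and 3007 lower. The platelet median was 4.79, the reticulocyte clearance median 3.91, the red pulp macrophage median -5.27 and the stromal median -6.80, beside -0.29 for all genes. The erythroid median was -0.09. Vcam1 had 0 counts in both remaining globin-rich libraries, and Ppbp differed by 4.81 on the log2 scale.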

How the data were processed

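Per the labels, RNA of blood and spleen was sequenced from NEBNext Ultra II libraries on a NextSeq instrument. The values the authors deposited are whole-number read counts for 46603 Ensembl genes in each library. Of the tools, Trimmomatic 0.36, HISAT2 2.0.4, FastQC, HTSeq and SAMtools 0.1.19 are listed in the submitters' processing notes, with the build given as GRCm38 or mm10. Which annotation and which strand setting were used for counting are not given in the sources used here, so reads of overlapping and antisense genes cannot be told apart. Symbols and positions came from GENCODE vM21, which held 46005 identifiers, and promoters from RefSeq.

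After the 4 globin genes were removed, genes were filtered with filterByExpr by library kind, scaled with TMM and fitted with kind and genotype by edgeR 4.0.16 in R 4.3.3 (quasi-likelihood F test, robust, Benjamini-Hochberg, threshold 0.05). Interactions of kind with genotype and with tissue label were tested in 2 further fits of all 12 libraries. DESeq2 1.42.0, limma-voom (limma 3.58.1), other scalings, filters and depths, each tissue label alone, the replicate number as a block and each library left out were tried as alternatives. Counting intervals of few counts are exact. Python 3.11.15 (pandas 2.3.3, SciPy 1.17.1, matplotlib 3.10.9) served for tables and figures.

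The libraries, gene lists, tests and naming rule were chosen with earlier results of these data known. The rule named the 5 markers, the 12 separated genes of at least 10 CPM with the largest change in each direction, the 2 most abundant members and both extremes of each list, the 5 genes with most counts in each kind, and the genes with the smallest p of each tested term. Other list members named in the text were chosen after their values were seen, to show both directions of a list. Some list members are not reported here.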

Additional observations from a re-analysis of the deposited data

Results flagged for a closer look

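Within each kind, the summed level of each gene list and 8 measures of library composition were checked for a library that stands far from the others, and 3 were found in 78 groups of 6 libraries, where chance alone flags about 5% of groups. The neutrophil list stood at 7280 scaled CPM in the globin-rich library labelled spleen KO 03, and the nearest globin-rich library stood at 2490. The MHC class II list stood at 11400 scaled CPM in the globin-poor library labelled spleen WT 01, and the nearest globin-poor library at 7700. Exocrine pancreas genes, which encode digestive enzymes, summed to 498 scaled CPM in the globin-poor library labelled blood KO 04, and the nearest globin-poor library stood at 78.4.

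For 8 of the 17 genes called by the interaction of library kind with tissue label, those with the smallest p in each direction, the rich-poor difference under the label blood minus that under the label spleen is given on the log2 scale. It was 2.14 for Cacna1e, 1.92 for Ikzf3 and 1.47 for Ppm1h, which differed more upward under the label blood. It was -4.01 for Ache, -2.68 for Hbq1a, -2.06 for Cdkn2d, -2.01 for Cyb5a and -1.53 for Ubap1, which differed more upward under the label spleen. The 17 calls became 0 with the replicate block and 1 under library size alone.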

How the results depend on the processing

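Counts of genes called between the kinds by edgeR differed between settings. Genes called higher numbered 917 under library size alone, 1728 in the libraries labelled spleen, 1797 without the 4 libraries richest in olfactory receptor counts and 10969 with no filter. Genes called lower numbered 9816 under library size alone and 1624 in the libraries labelled spleen. Leaving out 1 library gave 3093 to 3632 higher and 3621 to 4824 lower calls. The KO effect gave 11 calls with no filter, and otherwise 0 under every alternative in which it was counted. It was not counted within each tissue label alone or without the 4 libraries richest in olfactory receptor counts. The kind by genotype interaction gave 58 calls with DESeq2 and 23 with no filter, and 0 to 118 with 1 library left out. The kind by tissue label interaction gave 1292 calls with DESeq2, 849 with no filter, 36 with libraries thinned to equal depth, 26 with globin kept, 7 with limma-voom and 1 under library size alone, and 0 to 952 with 1 library left out. The cause of these differences was not tested.

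Under library size alone, which shifts the median of all genes by -1.12, the log2 fold change turned negative for Slc11a1 (-0.28), Ciita (-0.00701), Gata2 (-0.169), Aldoa (-0.495), Myo1g (-0.314), Myo1c (-0.382), Eif2s3y (-0.668), Uty (-0.241), Ppm1h (-0.51) and mt-Nd5 (-0.0215). In the libraries labelled spleen alone it changed sign for 3 of the named genes that edgeR called between the kinds, Ppm1h (-0.107), Gata1 (0.487) and Tal1 (0.203). It also changed sign for named genes that were not called, among them Ache, at 1.22 instead of -0.95.

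Replicate numbers are shared by 4 pairs of blood and spleen libraries, whose residuals after kind and genotype correlated at 0.0388, -0.115, -0.0207 and -0.452, so the numbers were not taken to pair libraries. With the replicate block, 2868 genes were called higher, 3591 lower, 0 for genotype, 0 for the kind by genotype and 0 for the kind by tissue label interaction. The 4-library alternative was chosen after seeing the data, and the kind by genotype interaction was not run in it because no WT library remains in the globin-rich kind. Depth limits the globin-rich kind, where 3 counts stand for 0.515 CPM or more before TMM scaling.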

Other observations

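Replication-dependent histone genes, which package newly made DNA and whose messages lack the usual tail, were mixed. Of 68 annotated genes 28 passed the filter, 8 were separated and higher in globin-rich libraries and 2 lower, and the kinds' sums stood at 787 to 2438 against 90.9 to 366 scaled CPM. The linker histone Hist1h1c stood at 402, 711 and 1590 scaled CPM (lowest, median and highest) against 31.9, 45.7 and 73.2, and Hist1h2bc and Hist1h4m differed by 4.42 and 5.95 on the log2 scale. Hist1h2ap and Hist1h2ao differed by -4.71 and -4.93. The list's median of 1.36 became -0.16 without the 4 libraries richest in olfactory receptor counts. Histone genes share reads with near-identical copies, so single values are uncertain.

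Eosinophil, basophil and mast cell genes had 13 of 18 members tested, 2 separated and higher and 2 lower. Siglecf, a surface lectin of eosinophils, stood at 2.78, 4.80 and 9.21 scaled CPM in globin-rich against 0.0288, 0.0862 and 0.171 in globin-poor libraries, and Il5ra, the receptor chain for interleukin 5, differed by 1.76. Prg2, the eosinophil granule protein, had 3 counts in all globin-rich libraries together and was 65.2-fold higher in globin-poor libraries (95% interval 22.3 to 316). The stem cell factor receptor Kit differed by -2.88. The list's median of 0.54 became -0.67 under library size alone and -0.69 without the 4 libraries.

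Of genes of tissues that neither blood nor spleen should hold, 5 of 10 fat cell genes, 3 of 10 skin and skeletal muscle genes and 2 of 15 exocrine pancreas genes passed the filter, and 0 of these were separated. Fat cell genes summed to 9.27 to 40.1 scaled CPM in globin-rich libraries. In globin-poor libraries they stood at 321 in spleen KO 04, 329 in spleen WT 01 and 61.4 in blood KO 04, and at 3.93 to 12.2 in the other 3. Skin and skeletal muscle genes summed to 1.97 to 11.5 against 3.09 to 4.84 scaled CPM.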
